A study of Homo sapiens with 4 samples.

Results

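A set of 370 promoters was examined in which each of 4 nucleosome maps had a wide stretch around the transcription start site (TSS) without a called nucleosome. A promoter entered the set when, in each library, its TSS lay between 2 neighbouring called nucleosomes whose facing edges were 400 to 3000 bp apart. The starts were the canonical TSSs of autosomal protein-coding genes on hg19, with reads within 1 kb of the TSS in every library. There were 18978 such starts, 18969 of them passed the condition on reads, and the 370 members were 1.95% of these. Because neighbouring genes can share 1 gap, the members stood for 326 distinct gaps, and 85 members shared theirs. The members were chosen by gap width in these same 4 libraries, so widths and edge positions are given below as descriptions without a test.

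The maps came from MNase-seq of BE(2)C cells, an established neuroblastoma line in which MYCN is amplified, all of them wild type by their labels. Cells were transfected with 80 nM of a control siRNA (2 libraries) or of an siRNA against MYCN (knockdown, 2 libraries), the concentration being that of the labels, whereas the study's methods state a lower one. The libraries held 147726171, 242544884, 147370973 and 239257113 reads in called nucleosomes for control 1, control 2, knockdown 1 and knockdown 2, so replicate 2 was the deeper library of both groups. Values from the 4 libraries are given in that order throughout. The study's methods call the replicates biological, but the labels do not say that they came from separate cultures, so p-values cover the spread between these libraries. DNA reads do not measure the knockdown of MYCN, which was not a member and whose amplified promoter held 18725, 23542, 18820 and 23646 reads.

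At active promoters RNA polymerase assembles in a nucleosome free region (NFR) just upstream of the TSS. The +1 nucleosome lies just inside the gene and the −1 nucleosome on the other side of the NFR. Sequence-specific factors that bind in the NFR, and remodelers that slide or evict nucleosomes, keep this DNA accessible. NF-Y, a complex with histone-fold subunits that binds the CCAAT box, is a known factor of this kind. Its box usually lies a short distance upstream of the TSS in either orientation.

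The sequences below lay inside the gap that all 4 libraries had in common, upstream of the TSS and outside annotated exons (GRCh37 sequence, 5′ to 3′ on the gene's strand). Capitals mark CCAAT or its reverse complement ATTGG, since this word is counted in what follows. The 4 genes shown first were among the 8 with the widest gaps, and SKI and FOXO3B held no such word in the stretch printed. The next 4 had the flanking nucleosomes that moved least between libraries. The last 3 were among those with the most CCAAT words and were chosen after their values were seen.
B4GALNT4, chr11:369299-369498, plus strand: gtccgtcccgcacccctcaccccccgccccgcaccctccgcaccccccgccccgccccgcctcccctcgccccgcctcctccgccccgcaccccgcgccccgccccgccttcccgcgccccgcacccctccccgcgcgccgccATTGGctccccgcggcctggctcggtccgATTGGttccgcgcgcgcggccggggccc
SKI, chr1:2159558-2159757, plus strand: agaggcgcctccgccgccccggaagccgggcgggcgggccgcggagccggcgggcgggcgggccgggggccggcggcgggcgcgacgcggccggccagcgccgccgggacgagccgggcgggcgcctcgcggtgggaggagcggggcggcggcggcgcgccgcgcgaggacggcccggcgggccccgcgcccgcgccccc
MEX3C, chr18:48724052-48724251, minus strand: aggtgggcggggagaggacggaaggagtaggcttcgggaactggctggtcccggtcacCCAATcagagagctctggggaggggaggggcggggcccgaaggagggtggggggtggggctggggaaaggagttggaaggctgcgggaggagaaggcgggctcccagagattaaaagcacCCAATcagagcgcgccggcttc
FOXO3B, chr17:18585628-18585827, minus strand: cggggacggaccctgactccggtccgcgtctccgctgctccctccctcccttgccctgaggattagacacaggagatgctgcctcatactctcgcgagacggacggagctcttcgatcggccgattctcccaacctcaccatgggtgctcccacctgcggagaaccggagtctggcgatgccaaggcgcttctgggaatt
ANKRD11, chr16:89556970-89557126, minus strand: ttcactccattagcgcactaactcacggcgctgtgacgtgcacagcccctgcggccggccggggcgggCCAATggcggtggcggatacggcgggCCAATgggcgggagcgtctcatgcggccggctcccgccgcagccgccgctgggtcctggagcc
PDXP, chr22:38054530-38054729, plus strand: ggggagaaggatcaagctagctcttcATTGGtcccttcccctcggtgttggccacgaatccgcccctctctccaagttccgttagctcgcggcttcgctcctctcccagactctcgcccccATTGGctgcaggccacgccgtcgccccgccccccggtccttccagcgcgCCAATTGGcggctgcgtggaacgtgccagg
AURKAIP1, chr1:1310588-1310787, minus strand: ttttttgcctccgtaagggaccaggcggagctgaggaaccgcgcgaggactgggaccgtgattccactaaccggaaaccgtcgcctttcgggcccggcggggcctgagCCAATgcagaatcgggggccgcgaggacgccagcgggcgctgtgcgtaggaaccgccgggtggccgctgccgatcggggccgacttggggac
MPHOSPH9, chr12:123717786-123717931, minus strand: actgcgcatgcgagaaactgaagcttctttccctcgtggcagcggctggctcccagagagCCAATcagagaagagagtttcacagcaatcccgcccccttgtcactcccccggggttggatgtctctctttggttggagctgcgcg
STIP1, chr11:63953447-63953642, plus strand: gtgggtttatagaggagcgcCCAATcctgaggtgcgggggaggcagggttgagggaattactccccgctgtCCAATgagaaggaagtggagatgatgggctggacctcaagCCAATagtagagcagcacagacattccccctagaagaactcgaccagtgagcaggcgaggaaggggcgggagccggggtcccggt
PRR11, chr17:57232793-57233092, plus strand: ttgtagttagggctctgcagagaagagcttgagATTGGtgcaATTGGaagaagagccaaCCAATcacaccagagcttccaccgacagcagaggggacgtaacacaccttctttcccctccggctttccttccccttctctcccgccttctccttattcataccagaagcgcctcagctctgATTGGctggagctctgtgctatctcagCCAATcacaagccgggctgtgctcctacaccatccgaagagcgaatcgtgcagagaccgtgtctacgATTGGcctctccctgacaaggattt
ARID4A, chr14:58764922-58765221, plus strand: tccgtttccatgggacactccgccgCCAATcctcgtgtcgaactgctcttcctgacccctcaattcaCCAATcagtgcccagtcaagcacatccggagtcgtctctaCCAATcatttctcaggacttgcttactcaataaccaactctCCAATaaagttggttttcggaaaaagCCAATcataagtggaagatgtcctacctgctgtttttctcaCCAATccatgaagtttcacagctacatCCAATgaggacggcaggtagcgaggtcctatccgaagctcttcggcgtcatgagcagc
In ARID4A, which encodes a retinoblastoma-binding chromatin protein, the printed 300 bp held 7 words, all in 1 orientation, and the gap measured 503, 486, 505 and 506 bp. PRR11, a gene of late cell-cycle progression that shares its gap with SKA2, had gaps of 686, 648, 694 and 636 bp and 6 words in the printed stretch. STIP1, which encodes a co-chaperone linking HSP70 and HSP90, held 9 words in the window used below. Its gap measured 960, 723, 822 and 741 bp.

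CCAAT words were present in more of the wide-gap promoters than of other promoters, and in more copies. The window searched reached 400 bp upstream and 100 bp into the gene. In it, 263 of 370 members (71.1%, 95% Wilson interval 66.3 to 75.5%) held CCAAT on either strand. The share was 47.1% (46.4 to 47.8%) of all 18969 promoters and 45.4% of the 4890 promoters whose gap was under 400 bp in every library, called narrow-gap promoters here. At least 2 words were present in 53.5% of members against 18.6% of all promoters, and at least 3 in 35.9% against 6.78%. The mean was 2.08 words per member and 0.767 over all promoters. With 1 promoter per distinct gap, 69.0% of the member gaps and 45.7% of the narrow gaps had a word, and 34.7% and 5.56% had at least 3. The intervals cover counting error only, and no enrichment test was made. By contrast, the reversed word TAACC (or GGTTA), which has the same base composition, was present in 31.1% of members and 32.2% of all promoters.

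**Figure D1:**
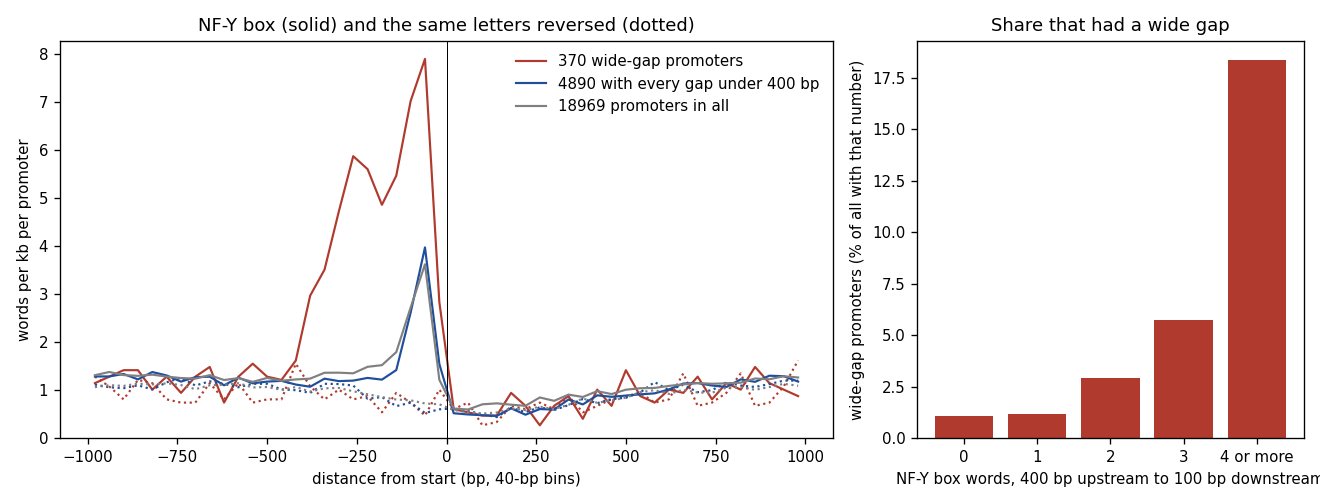
Left, words per kb per promoter against distance from the TSS in 40-bp bins, for the NF-Y box (CCAAT or ATTGG, solid) and for the same letters reversed (dotted), in 370 wide-gap promoters, 4890 narrow-gap promoters and all 18969 promoters. Right, percent of promoters that were wide-gap members by number of words, from 1.07% with none to 18.4% with 4 or more; the box density of members lies above that of the other promoters from the bin centred 380 bp upstream to the TSS.

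The share of promoters that were members rose with the number of CCAAT words, as the plot of NF-Y box words shows. It was 1.07% (107 of 10034) with no word, 1.20% with 1, 2.91% with 2, 5.74% with 3 and 18.4% (86 of 468) with 4 or more. The words also spread further upstream in members. In the bin centred 60 bp upstream of the TSS, members had 7.91 words per kb, and in the bin centred 260 bp upstream they still had 5.88. Within 120 to 40 bp upstream, a span around the usual place of the box, 46.2% of members and 20.7% of all promoters held a word. The words lay inside the gaps: the common gaps of members held 4.42 words per kb, whereas the 147 bp just outside each edge held 0.730 and the stretch from 148 to 600 bp outside held 0.948. GC content was 65.7% in the common gaps and 65.0% in the adjoining 147 bp, and the reversed word had 0.666 and 0.783 copies per kb there. Narrow gaps held 2.40 words per kb inside and 0.779 in the adjoining 147 bp.

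All 2080 words of 6 letters, each counted together with its reverse complement, were ranked by the share of members minus the share of all promoters that held them. The 3 at the top contained CCAAT, namely CCAATC (51.1% of members, 22.9% of all), GCCAAT (49.2% and 21.8%) and ACCAAT (37.0% and 14.0%). Of the 8 words that hold CCAAT, 4 were among the top 20, and most of the others in the top 20 were GC-rich. GC boxes (GGGCGG) were present in 88.6% of members, 78.7% of narrow-gap and 67.6% of all promoters. The NRF1 core CGCATGCG was present in 8.38% of members and 3.29% of all promoters, and the YY1 core AAGATGGC in 10.8% and 5.26%. Narrow-gap promoters stood between, with 5.44% and 8.69%. The E-box CACGTG, the preferred word of MYC and MYCN with MAX, was present in 14.3% of members, 14.0% of narrow-gap and 11.9% of all promoters. Its interval in members, 11.1 to 18.3%, took in both other shares. TATAAA was present in 8.38% of members, 9.35% of narrow-gap and 15.1% of all promoters, and the ETS word CCGGAAG in 22.97, 26.3 and 16.8%. A match of letters is a description and does not show that a factor was bound.

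Members were GC-rich, with 64.1% GC in the median window against 61.5% over all promoters, and 92.7% of them met a CpG-island criterion (GC over 50% and observed over expected CpG over 0.6) against 64.7%. All promoters were cut into 5 classes of about equal size by GC content. In the GC-poorest class promoters were rarely members (17 of 3802, 0.450%), and the shares in the other classes were 2.09 to 2.55%. The share with a CCAAT word was higher in members in every class, with the smallest difference in the GC-richest, which had 84 members. No interval was computed by class. From the GC-poorest to the GC-richest, the share with a word was 94.1, 87.5, 78.9, 73.4 and 39.3% of members and 59.7, 52.8, 49.5, 42.0 and 31.1% of all promoters. In 5 classes by observed over expected CpG, from lowest to highest, 0.13, 1.13, 1.85, 2.66 and 3.98% of promoters were members. The CCAAT share was not computed by CpG class. By regional level, the reads within 50 kb relative to the median promoter, members had a median of 0.902. In the lowest of 5 classes by regional level 3.14% of promoters were members, against 1.56 to 1.82% in the others. The CCAAT share of members was 63.8 to 84.7% in these classes, and that of all promoters was 42.9 to 50.2%. Both base composition and regional read level thus moved with membership, and their part in the gap calls was not tested.

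The gaps lay mostly upstream of the TSS. Median widths were 545, 499, 546 and 498.5 bp, against 192, 184, 204 and 184 bp at narrow-gap promoters. The widest single gap was 2000 bp, under the upper limit of 3000 bp. The distance from the TSS to the upstream nucleosome had medians of 429.5, 400, 423 and 405.5 bp, whereas that to the downstream nucleosome had medians of 79, 80, 84.5 and 77.5 bp. In 318 members the TSS was closer to the downstream edge. The corresponding upstream distances at narrow-gap promoters were 131, 124, 137 and 123 bp, and the downstream ones were 52 to 54 bp. Thus most of the extra width of members was on the upstream side.

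**Figure D2:**
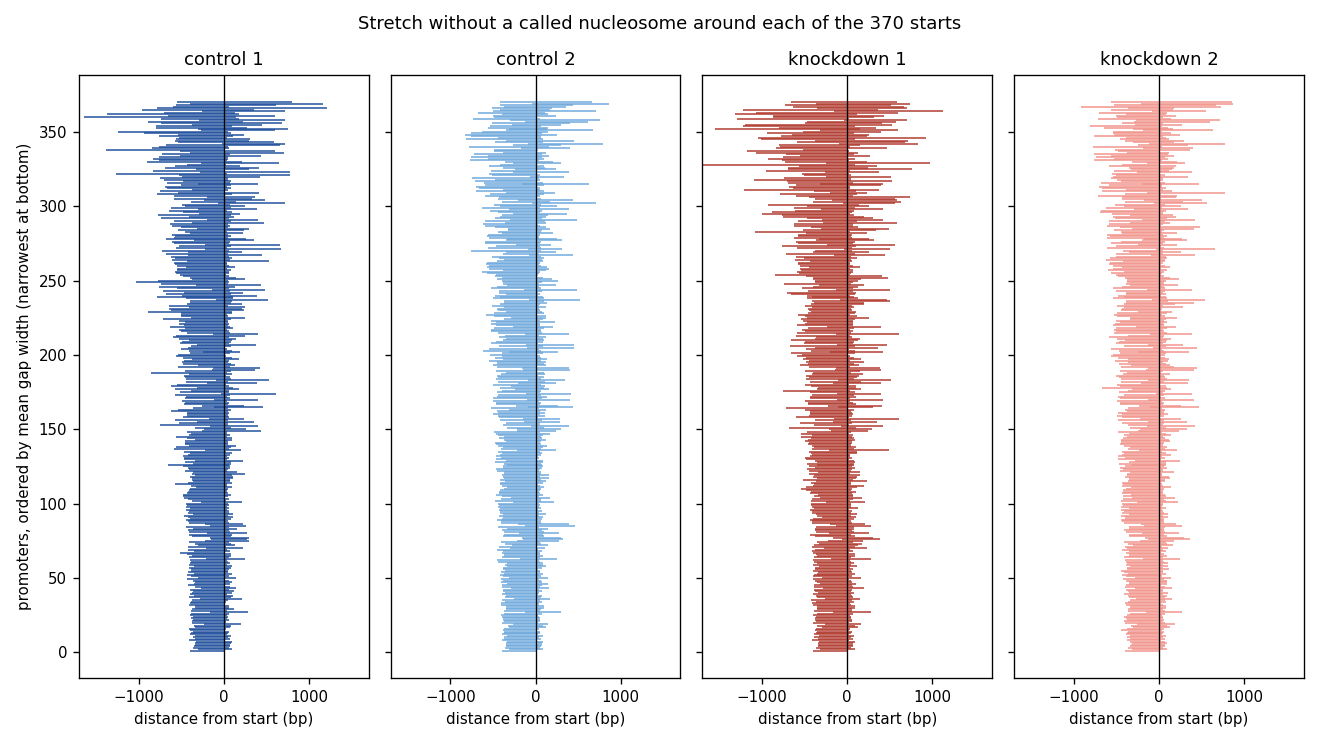
Each line is the stretch between the facing edges of the flanking nucleosomes at 1 of the 370 promoters, drawn against distance from the TSS (bp, upstream negative), in the 4 libraries. Promoters are in the same order in every panel, from the narrowest mean gap (bottom) to the widest (top); most lines extend further to the left of the TSS than to the right, and the longest are in the replicate 1 libraries.

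The averaged reads had the same outline, as the plot of reads by centre position shows. In members, the centres of called nucleosomes formed a peak 130 bp downstream of the TSS, the position of the +1 nucleosome, in all 4 libraries. Its height was 3.55, 2.98, 3.01 and 2.82 times the mean level beyond 1 kb. At narrow-gap promoters the +1 peak was at the same place, with a height of 4.08, 3.69, 3.86 and 3.70 times. A second peak of members was at 310 bp in every library. Over the 400 bp upstream of the TSS the level was 0.115, 0.110, 0.126 and 0.121 of that beyond 1 kb in members, and 0.750 to 0.837 at narrow-gap promoters, a difference that the choice of members fixes. On the far side of the gap, members had a lower peak 450 to 490 bp upstream of the TSS, at 1.27 to 1.44 times that level. The lower limit on gap width bears on the place of this peak too, so it is a description.

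**Figure D3:**
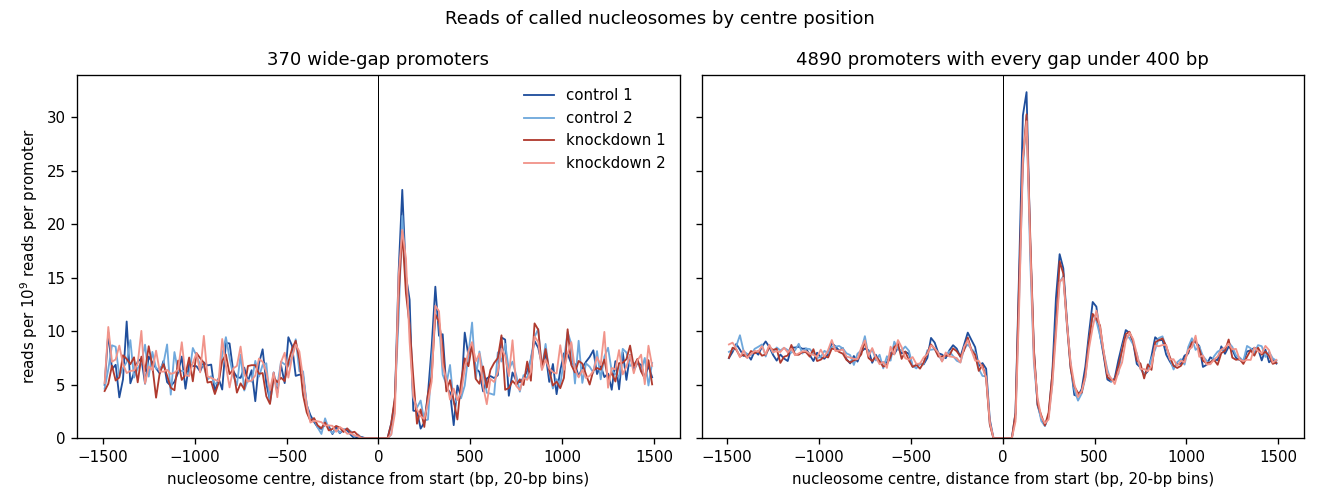
Reads of called nucleosomes, scaled to an equal library total and averaged per promoter, against the distance of the nucleosome centre from the TSS (20-bp bins), in 370 wide-gap promoters (left) and 4890 narrow-gap promoters (right), 1 line per library. Both sets have a +1 peak at 130 bp, and the members lack centres over about 400 bp upstream of the TSS.

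A nucleosome was listed only from 6 reads, and the shallower replicate 1 libraries had more gaps of this width than the replicate 2 libraries. Depth and replicate number cannot be told apart here. Such gaps were present at 2283, 1081, 2528 and 1003 promoters of the single libraries, and members were 16.2, 34.2, 14.6 and 36.9% of these. No library had such a gap at 15107 promoters, 1 library at 2050, 2 at 961 and 3 at 481. The CCAAT share rose over these classes, from 44.7% with no library through 52.0, 57.0 and 63.2% to 71.1% with all 4. When only nucleosomes with at least 10 reads were kept in the deeper replicate 2 libraries, to bring the depths closer, the set grew to 779 promoters. With at least 10 reads in every library it grew to 1088, of which 61.3% held CCAAT. Without knockdown 2 the gap was required in 3 libraries, and 564 promoters had it.

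At the lower limit, CDK2AP2 had widths of 405, 400, 411 and 412 bp, and CHD4, which encodes the ATPase of the NuRD remodeling complex, had 409, 400, 401 and 487 bp. The narrowest gap of NEU1 (400, 534, 462 and 529 bp) and PLEKHH3 (419, 407, 400 and 400 bp) was also at the limit. Just outside were DLG4 (454, 435, 543 and 399 bp), LRRC27 (408, 415, 399 and 400 bp), MIGA1 (720, 399, 717 and 511 bp) and MRTFA (413, 399, 431 and 432 bp). In all, 81 members had a narrowest gap of 400 to 419 bp, and 111 other promoters had one of 380 to 399 bp.

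The widest gaps were flanked by few reads. B4GALNT4, a glycosyltransferase gene, had gaps of 1355, 1090, 1246 and 1423 bp, and 1008 bp (chr11:369079-370086) were free of called nucleosomes in all libraries. Its upstream nucleosome had 15, 9, 7 and 9 reads and its downstream one 13, 11, 8 and 16. At SKI, a co-repressor of SMAD signaling, the gaps were 1172, 857, 1250 and 1198 bp, with 92.0% GC in the printed 200 bp. At MEX3C, an RNA-binding ubiquitin ligase gene, the widths were 2000, 701, 1061 and 545 bp, so the libraries differed by up to 1455 bp. DUSP8, a MAP kinase phosphatase gene, had 977, 1214, 1274 and 641 bp. UBP1, which encodes a transcription factor, had 842, 788, 1665 and 802 bp, so that knockdown 1 stood apart from the other libraries. The other 3 of the 8 widest lay partly in repeated sequence or on few reads. SCX had 1566, 904, 1108 and 1081 bp, but none of its 100-base words within 500 bp of the TSS occurred only once in the genome, and for MROH1 (663, 728, 1306 and 1646 bp) only 11.1% did. FOXO3B (1315, 586, 1585 and 725 bp) had 78.4% unique words. Among all members, 17 (4.59%) had under 90% unique words, against 3.61% of all promoters.

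Other members had nearly the same gap in every library, as the map of named promoters shows. At ANKRD11, a chromatin regulator gene, the gaps were 490, 493, 496 and 498 bp, and the upstream centre lay 525, 528, 528 and 527 bp from the TSS. At PDXP, a pyridoxal phosphate phosphatase gene, they were 471, 472, 469 and 476 bp. AURKAIP1 had 478, 490, 491 and 478 bp, and MPHOSPH9 had 421, 407, 412 and 415 bp. PRKCSH, which encodes a subunit of glucosidase II, shares its gap with ODAD3, whose start lies 514 bp away on the other strand. That gap was 614, 620, 621 and 614 bp. Both flanking centres stayed within 20 bp over the 4 libraries in 31 members (8.38%), the upstream one in 82 and the downstream one in 105.

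**Figure D4:**
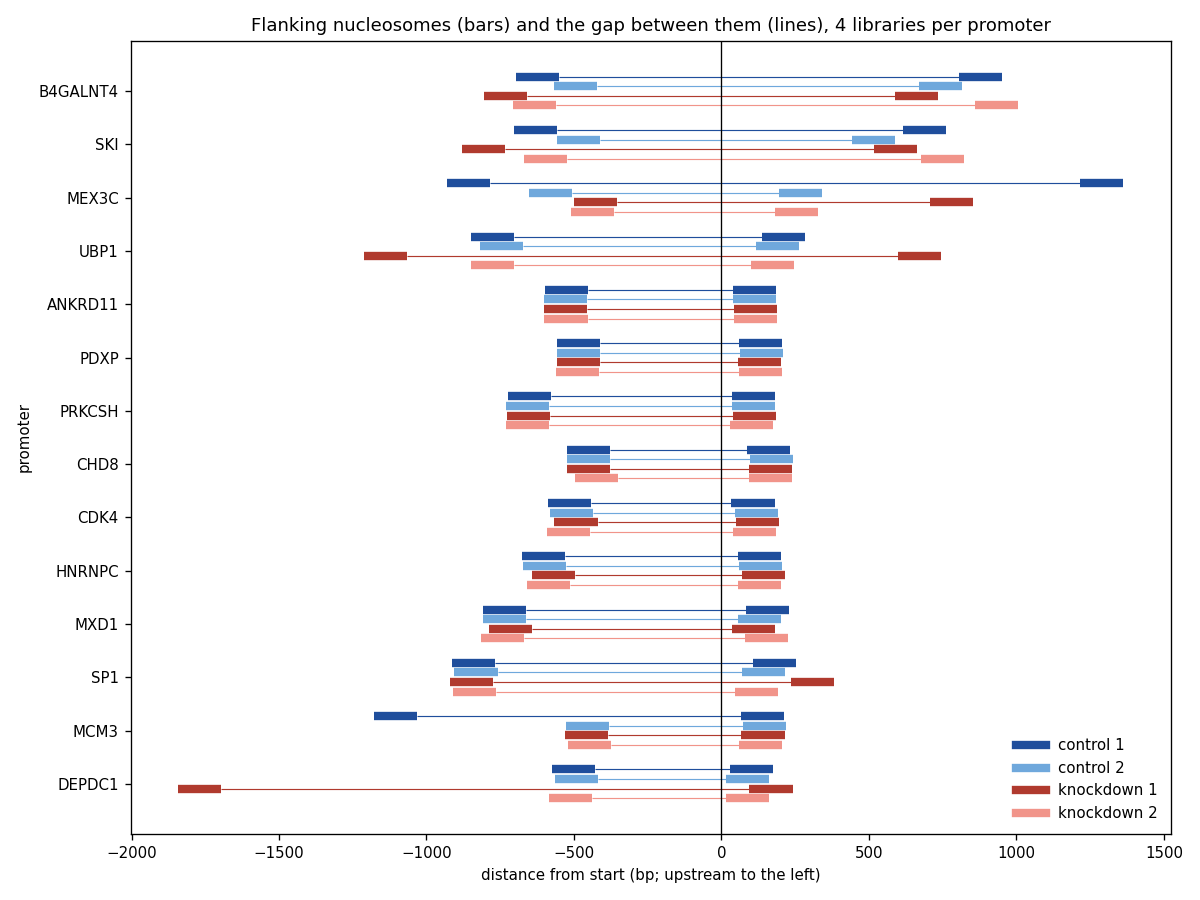
Positions of the upstream and downstream flanking nucleosomes (thick bars, 147 bp) and the gap between them (thin lines) in 4 libraries at 14 promoters, against distance from the TSS in bp. The edges of ANKRD11, PDXP and PRKCSH coincide in all libraries, whereas a single library has a much wider gap at UBP1, MCM3 and DEPDC1.

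Gaps that moved little had more reads at their edges. The range of gap width over the 4 libraries had a median of 122 bp. For the 28 members whose range was under 20 bp, the median of the flanking reads (both nucleosomes, mean of 4 libraries) was 45.8, and it was 38.6, 34.5, 33.8, 23.8 and 20 in the classes from 20, 50, 100, 200 and 400 bp upward. The edges lay less alike in the 4 libraries where reads were few, and few reads and wide gaps went together. Members with a mean width under 450 bp had a median of 39.2 flanking reads and those from 800 bp had 19.8.

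Among 22 gene lists, those of splicing and of translation had the highest shares of members. The lists were drawn up with earlier results of these data known, so the counts are descriptive, beside 1.95% of all promoters. Of 36 promoters of splicing and RNA-binding genes, 5 (13.9%) were members. HNRNPC, which encodes a core protein of nascent RNA particles, had gaps of 588, 586, 565 and 570 bp and 4 CCAAT words. HNRNPL, a splicing regulator gene, had 814, 939, 816 and 818 bp. SF1, the branch-point binding factor, had 913, 785, 1320 and 858 bp, RBM39 had 525, 520, 654 and 604 bp, and HNRNPD had 530, 437, 455 and 510 bp. Of 39 promoters for translation factors and protein folding, 5 (12.8%) were members. EIF4A1, the helicase of the cap-binding complex, had 500, 484, 450 and 576 bp, and the chaperone gene CALR had 489, 470, 462 and 558 bp. EIF4G2 had 548, 472, 513 and 453 bp and HSPA1B, an HSP70 gene, had 730, 420, 810 and 546 bp. EIF5A had 567, 504, 1969 and 466 bp, with knockdown 1 apart. Of 80 ribosomal protein genes, a separate list, 3 (3.75%) were members, among them RPL27 (414, 439, 410 and 414 bp) and RPL13A (414, 445, 409 and 451 bp).

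Members were also present in the lists of chromatin, repair and replication genes. Of 24 remodeler genes, CHD4 and CHD8 (8.33%) were members, and CHD8 had gaps of 467, 476, 469 and 442 bp. Of 42 genes of double-strand break repair, 3 (7.14%) were members. These were LIG4, the ligase of end joining (739, 877, 921 and 894 bp), RPA2, a subunit of the single-strand binding complex (563, 432, 464 and 530 bp), and H2AX, the histone variant phosphorylated at breaks (463, 424, 439 and 488 bp). RAD23B, a gene of nucleotide excision repair, was a member with 467, 461, 404 and 457 bp. The replicative helicase genes MCM3 (1098, 455, 451 and 434 bp) and MCM6 (982, 424, 521 and 403 bp) were 2 of 33 replication genes, and in both control 1 had the widest gap. Among the replication-dependent histones, 3 of 64 were members, the pair H2AC15 and H2BC15 with a shared gap of 494, 425, 416 and 423 bp, and H2BC10 with 621, 438, 579 and 463 bp.

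The lists of transcription factors and other regulators had shares of members both above and below the 1.95% of all promoters. Most shares rested on 1 or 2 members. The MYC network list had 7.14%, and the immediate early and general transcription lists had 8.0% each. The ribosome biogenesis and neuroendocrine lists had 4.17% each and the cell-cycle list 4.0%. Zinc finger (1.56%), homeobox (0.79%) and olfactory receptor genes (0.77%) were below the share of all promoters. Of 14 genes of the MYC network only MXD1, which encodes a MAX partner that opposes MYC, was a member, with gaps of 745, 718, 680 and 749 bp and 5 CCAAT words. The immediate early genes JUN (662, 492, 492 and 698 bp) and KLF6 (503, 485, 565 and 469 bp) were 2 of 25. SP1, which binds GC boxes, had 875, 829, 1010 and 810 bp, and with HEXIM1 (474, 462, 493 and 501 bp) it made 2 of 25 genes of general transcription. The cell-cycle list had CDK4 as its only member of 25, with 475, 483, 468 and 486 bp. RRP9 (792, 506, 523 and 580 bp) was the only one of 24 ribosome biogenesis genes, and ELAVL4, a neuronal RNA-binding protein gene (911, 566, 1218 and 448 bp), the only one of 24 neuroendocrine genes. Of 578 zinc finger genes 9 (1.56%) were members, led by ZNF521 (1779, 493, 1181 and 536 bp) and ZBTB20 (1076, 704, 1138 and 754 bp), and ZNF362, ZFP91, ZBTB24 and ZNF143 followed. POU2F1 (506, 433, 515 and 508 bp) was the only member of 127 homeobox genes, and 3 of 388 olfactory receptor genes were members, OR52N4, OR2A1 and OR4D11. The lists of adrenergic core factors (16 genes), mesenchymal-state genes (22), histone chaperones (16), protocadherins (61) and keratins (149) had no member. Outside these lists and chosen after their values were seen, the genes for the NF-Y subunits NFYA (785, 1081, 899 and 775 bp) and NFYB (487, 490, 639 and 494 bp) were members themselves. NFYC, the gene for the remaining NF-Y subunit, was not a member.

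Starts on the other strand were more frequent at members than over all promoters. Of the members, 84 (22.7%, interval 18.7 to 27.2%) had a divergent protein-coding start within 1 kb upstream, against 16.4% of narrow-gap and 9.62% of all promoters. Pairs in which both genes are members count doubly in this share. With 1 promoter per distinct gap it was 14.4% of 326 member gaps and 12.2% of 4583 narrow gaps. Including noncoding transcripts, 46.2% of members had a start of the opposite strand within 1 kb upstream, against 35.3% of narrow-gap and 24.9% of all promoters. Counted on either side of the TSS, a start of the opposite strand lay inside the gap common to all libraries in 144 members (38.9%). A wider gap has more room for a start, and no such count is given for narrow gaps. Of the members from 800 bp of mean width only 1 of 39 was divergent, whereas 20 of 59 under 450 bp were.

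The nucleosomes at the edges of the wide gaps held fewer reads than those of narrow gaps, and the regional read level was also lower (median 0.902 in members, 1.049 at narrow-gap promoters), whose part in this was not tested. The upstream flanking nucleosome had a median of 11, 16, 11 and 16.5 reads in members and 13, 19, 13 and 20 at narrow-gap promoters. The downstream one had 13, 18, 12 and 19 reads against 16, 23, 15 and 24. Under 10 reads were present at 34.6, 14.3, 36.2 and 18.4% of the upstream nucleosomes of members. The fuzziness, the SD of read midpoints around the nucleosome center, was nearly the same in both sets. It was 30.5, 32.4, 30.96 and 32.1 bp for the 2 flanking nucleosomes of members together and 30.4, 32.5, 30.4 and 32.6 bp for narrow gaps. Fuzziness was higher in the deeper replicate 2 libraries in both sets. The most flanking reads were at FAM90A22 and FAM72A, members of duplicated gene families with under 33% unique words, followed by PRKCSH and ODAD3. The lowest fuzziness was at DHX8, a splicing helicase gene with a mean of 23.1 bp and gaps of 463, 454, 451 and 451 bp, and then at FHIP1B (23.7 bp), KCTD9 (24.2 bp) and DCAF15 (24.2 bp).

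The comparison of control with MYCN knockdown asked whether these gaps or their edges changed. The mean of the library medians of gap width was 522 ± 32.5 bp in control and 522 ± 33.6 bp in knockdown (SD, n = 2 libraries each), a difference of 0.250 bp. Of the 370 members, 55 had both knockdown gaps wider than both control gaps and 46 had both narrower. Among the 7392 promoters that lay between 2 nucleosomes in all libraries, 16.6% were wider and 12.8% narrower in this way. Since width chose the members, nothing is read from these counts. Some of the largest mean differences among them came from a single library. At DEPDC1 the gaps were 455, 433, 1792 and 456 bp and at ARRB2, the gene for beta-arrestin 2, 426, 430, 1595 and 439 bp. HDAC4 (565, 449, 1188 and 636 bp) and MROH1, where both knockdown gaps were much wider, were the other 2 with the largest widening. In the other direction were BRSK2 (1415, 921, 908 and 479 bp), RIMOC1 (779, 819, 443 and 480 bp), MCM3 and the AAA ATPase gene VCP (963, 538, 496 and 486 bp). At RIMOC1 both libraries of each group were close to each other, on 10, 11, 9 and 11 reads in the upstream nucleosome. It was named by these same widths, so nothing is read from this.

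Distances between the flanking centres of 2 libraries are shown in the plot of distances between centres. They rest on the edges by which the members were chosen, so they are a description and no absence of displacement is read from them. The median distance between the upstream centres of 2 libraries was 23 bp within a group, 20.2 bp between groups for libraries of the same number and 20.5 bp for different numbers. For the downstream centres it was 18.8, 15.8 and 16.5 bp. Narrow-gap promoters had shorter distances, from 14.5 to 16 bp upstream and 11 to 12 bp downstream. Their gaps were under 400 bp in every library by definition, which limits these distances, so nothing is read from the contrast. A displacement over 116 bp, at which nucleosomes share 30 bp or less, was present for 23 and 21.1% of upstream centres within the control and the knockdown group. Between groups it was 24.9% for control 1 with knockdown 1, 12.2% for control 2 with knockdown 2, and 21.6 and 21.9% for the pairs of different number. Downstream, control 1 with knockdown 1 also had the highest share, 18.4%, and control 2 with knockdown 2 the lowest, 8.10%. In the group means, the upstream centre of 185 members lay further out in knockdown and that of 181 further in. Downstream, 204 lay further out and 161 further in, with a median of 2.0 bp outward.

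**Figure D5:**
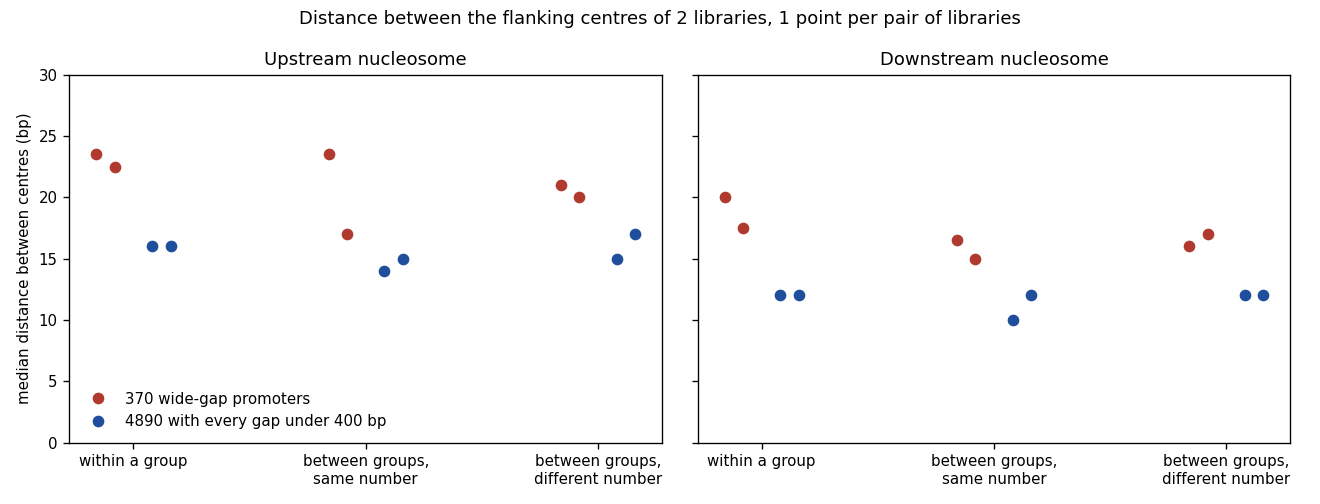
Median distance in bp between the flanking nucleosome centres of 2 libraries, 1 point for each of the 6 pairs of libraries, for the upstream (left) and downstream (right) nucleosome at wide-gap and narrow-gap promoters. At the wide-gap promoters the largest upstream value, 23.5 bp, is shared by the 2 controls and by control 1 with knockdown 1, and the largest downstream value, 20 bp, belongs to the 2 controls.

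Reads around the members were compared across all promoters with edgeR's quasi-likelihood test and Benjamini-Hochberg adjustment. For the reads in a window reaching 2 kb upstream and 1 kb into the gene, no promoter of 18969 passed an adjusted p of 0.05 (0%). At an unadjusted p under 0.05 there were 13 of 370 members (8 higher and 5 lower in knockdown) beside 3.27% of all promoters. DESeq2 called none either, and 7 of 370 members had an unadjusted p under 0.05, beside 202 of all 18969 promoters. The smallest p among members belonged to KNTC1, a kinetochore gene, with 112 and 183 reads in control and 153 and 277 in knockdown. The log2 fold change was 0.57 (SE 0.156), with an adjusted p of 0.999 by edgeR. RBM39 had 152 and 321 reads in control and 97 and 225 in knockdown, with a log2 fold change of -0.52 (SE 0.162). SLC39A10, a zinc importer gene (0.44), and RFWD3, a ubiquitin ligase gene of DNA repair (0.43), followed. At each of these 4 the direction was the same for both replicate numbers. Their choice by the smallest p in these same libraries favours that, so nothing is read from it.

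For the summed reads of the 2 flanking nucleosomes, no promoter of 18968 passed the edgeR test either (0%). At an unadjusted p under 0.05 there were 10 members (7 higher, 3 lower) beside 4.18% of all promoters. DESeq2 called none, with 1 member at that level beside 54 of all 18968 promoters. HDAC4, a histone deacetylase gene, had 19 and 32 reads in control and 41 and 56 in knockdown. Its log2 fold change was 0.97 (SE 0.267, adjusted p 0.996 by edgeR). The gap of HDAC4 also differed between libraries, so its flanking nucleosomes were not at the same place in all of them. ALG10 (-0.68), ARRB2 (0.72) and AATK (-0.60) came next. The upstream centre lay at -824, -459, -465 and -442 bp in ALG10 and at -445, -450, -1291 and -463 bp in ARRB2. Their flanking nucleosomes were therefore not at the same place in all libraries either. As 1 value per library, the median flanking reads of members relative to the median nucleosome of the library were 2.17, 2.00, 1.92 and 2.00. The group means were 2.08 ± 0.118 and 1.96 ± 0.0589 (SD, n = 2), and the exact permutation test gave p = 0.667 (two-sided). The smallest p that 2 against 2 libraries allow is 0.333.

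Fuzziness of the flanking nucleosomes was compared with limma. No promoter of 18968 passed an adjusted p of 0.05 (0%), and at an unadjusted p under 0.05 there were 11 members (5 higher, 6 lower) beside 3.85% of all promoters. In the 3 comparisons the shares of members at this level by edgeR and limma were 3.51, 2.70 and 2.97%, near or below those of all promoters. By DESeq2 the share for the promoter reads was higher in members than in all promoters, on 7 members. EIF4A1 had 22.4 and 18.6 bp in control and 34.6 and 33.7 bp in knockdown, a difference of 13.6 bp (SE 3.80, limma adjusted p 0.998), on 6 to 17 reads per nucleosome. NUDT2 and KIF24, which share a gap, had 33.6 and 38.2 bp in control and 25.1 and 25.8 bp in knockdown. EHBP1 had 20.2 and 28.5 bp against 40.4 and 30.5 bp. The median over members was 31.5 ± 1.35 bp in control and 31.5 ± 0.817 bp in knockdown (SD, n = 2), with p = 1 by the exact permutation test.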

How the data were processed

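The deposited files list called nucleosomes per library with a read count and a fuzziness value. Per the labels and the methods, the authors trimmed reads (Trim Galore 0.4.4), mapped them to hg19 (Bowtie2 2.2.4), kept proper pairs of high mapping quality, removed PCR duplicates and called nucleosomes with Genetrack from read-pair midpoints, leaving out those under 6 reads. The deposited counts are whole numbers of midpoints and were taken as unscaled, since their totals differ between libraries, although the methods describe occupancy as a normalized read count. The deposited fuzziness, which the authors define as the SD of midpoints around the dyad, is in bp. A gap can therefore hold reads below that minimum.

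Starts and exons were from GENCODE on GRCh37. A gap was the next start minus the previous end. Counts were fitted over all promoters (mean of at least 10 reads) with edgeR 4.0.16 (TMM), fuzziness with limma 3.58.1, in R 4.3.3, on group alone. DESeq2 1.42.0, no filter, a replicate block, GC correction, other gap limits, read minimums, the most upstream start and leaving out each library were alternatives. The fits were tested on simulated data. Words were searched on both strands in GRCh37. Uniqueness is the share of 100-base words within 500 bp of the TSS that occur once. Members and lists were chosen with earlier results of these data known. Named genes are the widest 8, those at the limits, list members (up to 6), the 4 extremes of width difference, flanking reads, fuzziness and p, and the 4 least moving. MYCN binding and expression data were not analysed here. Some members of the gene lists are not reported here.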

Additional observations from a re-analysis of the deposited data

How the results depend on the processing

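No member was called in any of the 3 fits under any alternative run. Over all promoters, the promoter reads gave 1 call with the replicate block and GC correction and 0 to 2 with a library left out (2 without knockdown 2). The flanking reads gave 3 calls with the replicate block, 3 with the replicate block and GC correction, and 0 to 3 with a library left out (3 without control 1 and 3 without control 2). Fuzziness gave 0 throughout. Deviations from the group means correlated between libraries of equal number at 0.275, 0.092 and 0.045 over all promoters for the 3 measures and at 0.267, 0.207 and 0.098 over members, and their numbers are not known to mark a shared batch. The paired differences of the medians over members (replicate block) were 0.250 bp in width, -0.125 in relative flanking reads and 0.055 bp in fuzziness. The number of members was 1142 with a gap of at least 300 bp, 125 with 500 bp, 1088 with at least 10 reads in every library, 779 with that minimum in the replicate 2 libraries, and 423 to 564 with a library left out. The mean of the median widths was 422, 643 and 640 bp under the first 3 of these. The width difference was -24.5 to 33.8 bp with a library left out (33.8 bp without knockdown 2). The fuzziness difference turned negative at 300 bp (-0.119 bp), at 500 bp (-0.600 bp) and for promoters of unique sequence (-0.025 bp), and was -1.10 to 1.12 bp with a library left out. The median distance of centres between groups was 76.0 bp upstream and 32.2 bp downstream with at least 10 reads in every library, and 28.0 and 20.5 bp with the minimum in replicate 2. Upstream it was 23.1 bp with 1 promoter per distinct gap and 19.0 to 25.5 bp with a library left out. Downstream it was 19.5 bp at 500 bp, 18.0 bp at the most upstream start and 16.0 to 18.0 bp with a library left out. The CCAAT share was 61.3% with at least 10 reads in every library and 67.7 to 71.7% under every other alternative run. The divergent share was 15.9% with at least 10 reads in every library, 18.0% with that minimum in replicate 2 and 14.4% with 1 promoter per distinct gap. The settings of unique sequence and distinct gaps were chosen after seeing the data. The causes of these movements were not tested. Many flanking nucleosomes held under 10 reads, which limits the precision of their counts.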
